A study of Mus musculus musculus x Mus musculus castaneus with 8 samples.

Results

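The chemokine genes described here are all genes of the deposited count table whose symbol begins with Ccl, Cxcl or Cx3cl followed by a digit. There were 38 of them among 24421 genes, 19 had at least 10 reads summed over the 8 libraries, and 13 passed the low-count filter and were tested. The cells, from which total RNA was sequenced, were tail fibroblasts of female F1 mice (Mus musculus musculus x Mus musculus castaneus), in a study that asked whether blocking DNA methylation and Aurora kinases together reactivates the silent X chromosome. The groups, with 2 libraries each, were cells given 5azadC (a cytidine analogue that inhibits DNA methyltransferases), cells given VX680 (an inhibitor of the Aurora kinases that act in mitosis), cells given both (5azadC+VX680), and untreated cells. All groups share the hybrid genotype and an equal volume of DMSO, the drug solvent, so the untreated cells carry the solvent alone. Drugs were added 24 h after plating and cells were grown for 72 h on 15 cm plates. The labels give neither the doses nor the number of animals, and do not say that the 2 libraries of a group came from separate cultures, so the p-values measure only the spread between these libraries.

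Chemokines are small secreted or membrane-tethered proteins that bind G protein-coupled receptors on leukocytes and other cells and steer their migration. They are sorted into classes by the spacing of the cysteines near the start of the mature protein: adjacent in CC chemokines, parted by 1 residue in CXC chemokines and by 3 in the CX3C chemokine Cx3cl1. Fibroblasts of the skin are known as a source of Cxcl12, which is made constantly, and of inflammatory chemokines such as Ccl2 and Cxcl1, whose transcription is induced by NF-kB, and of Cxcl9, Cxcl10 and Cxcl11, which are induced by interferons.

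The classes can be read in the coding sequences, shown here for the 8 members on which most of the results turn. Each line gives 30 bases in the reading frame, 5′ to 3′, from GENCODE M21 transcripts (build GRCm38), with the codons of the class-defining cysteines in capitals.
Cxcl12: agctaccgaTGCcccTGCcggttcttcgag
Cxcl10: acggtccgcTGCaacTGCatccatatcgat
Cxcl1: gagctgcgcTGTcagTGCctgcagaccatg
Cxcl5: gagctgcgtTGTgttTGCttaaccgtaact
Ccl2: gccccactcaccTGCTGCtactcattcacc
Ccl7: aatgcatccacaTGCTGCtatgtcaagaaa
Ccl5: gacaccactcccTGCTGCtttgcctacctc
Cx3cl1: atgacgaaaTGCgaaatcatgTGCgacaag
In Cxcl1 and Cxcl5 the codons just before the capitals spell the glutamate-leucine-arginine (ELR) motif of the chemokines that attract neutrophils, and Cxcl12 and Cxcl10 lack it. Each of the 13 tested members held its class motif exactly once in frame.

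Of the 38 genes, 24 were CC, 13 CXC and 1 CX3C. There were no reads in any library for 14 of them, of which 13 were CC genes: the CCR7 ligands Ccl19, Ccl21a, Ccl21b and Ccl21c, and Ccl1, Ccl3, Ccl6, Ccl12, Ccl22, Ccl24, Ccl26, Ccl27b and Ccl28. The CXC gene without reads was Cxcl13, the B cell attractant of lymphoid follicles. A further 5 had between 1 and 9 reads in all: Cxcl3 (9), Ccl4 (5), Cxcl2 (5), Ccl20 (4) and Cxcl17 (1). All 5 reads of Ccl4 were in 5azadC+VX680 cells. At total counts of 6908503 to 11169532 reads per library, these 19 genes were at or near the detection limit, which does not show that they were not transcribed. For Ccl27b, 98.1% of the 50-base windows also occur in other genes such as Ccl27a, so its lack of reads cannot be read as a low level.

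The make-up of the family differed between treated and untreated cells and is described here without a test. Cxcl12 took 20.4 and 26.6% of the summed chemokine level per kilobase in the 5azadC libraries, 9.26 and 8.97% in the VX680 libraries, 4.28 and 4.10% in the 5azadC+VX680 libraries, and 79.9 and 80.3% in the untreated libraries. Ccl2 took 23.0 and 19.6% with 5azadC, 34.4 and 33.8% with VX680, 35.2 and 35.8% with both, and 2.53 and 2.86% in untreated cells. Per kilobase, Ccl2 stood first in the 4 libraries that received VX680 and in 1 of the 2 5azadC libraries, and Cxcl12 stood first in the other 5azadC library and in both untreated libraries. Summed over all members, chemokine reads made up 591 ± 29.9 CPM with 5azadC (reads scaled to a common library size with TMM factors; SD, n = 2), 231 ± 8.12 with VX680, 257 ± 13.2 with both and 1287 ± 13.9 in untreated cells. Without Cxcl12 the treated groups were above the untreated one, at 244 ± 41, 158 ± 4.2 and 211 ± 9.37 CPM in the treated groups, against 83.2 ± 3.04 CPM in untreated cells (SD, n = 2). Per kilobase, where the long Cxcl12 transcript weighs less, the sum over all members was 265 ± 41.2 with 5azadC, 141 ± 4.41 with VX680, 196 ± 10.4 with both and 265 ± 4.69 in untreated cells (RPKM; SD, n = 2), so the 5azadC and untreated groups, far apart in CPM, were level on this scale.

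**Figure D1:**
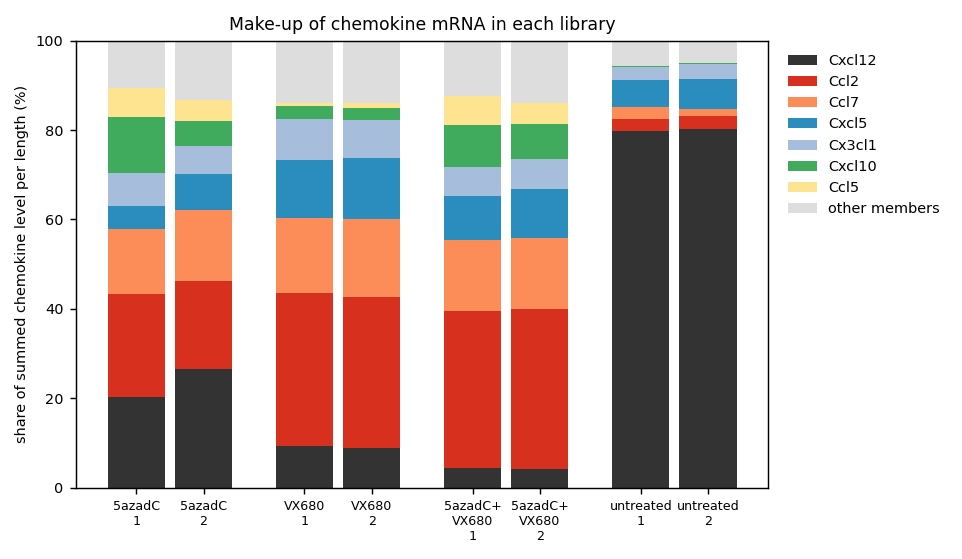
Share of each chemokine gene in the summed chemokine level per kilobase (%), 1 bar per library. Cxcl12 fills 79.9 and 80.3% of the untreated bars and between 4.10 and 26.6% of the treated bars, and in the 4 bars with VX680 Ccl2 and Ccl7 take the larger blocks.

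Against untreated cells, 8 of the 13 tested members rose and 1 fell with 5azadC, where 42.2% of all 12643 tested genes were called by edgeR at an adjusted p under 0.05 (22.6% up and 19.6% down). With VX680, 7 rose and 1 fell, beside 46.1% of all genes called (23.8% up and 22.4% down). With both drugs, 8 rose and 1 fell, beside 55.7% of all genes called (28.4% up and 27.3% down). The 3 comparisons share the same untreated libraries. Over the 11 members with more than 3 reads in each group, the median log2 change was 1.14 with 5azadC, 1.19 with VX680 and 1.34 with both, against medians of 0.0016, 0.0089 and 0.013 over all tested genes. Ccl5 and Cxcl9 are the other 2 tested members. Each had 2 reads in the untreated group, and both passed the low-count filter through the groups where they were high. Their calls and the counts that hold them are thus given as values and support nothing further. Cxcl10, with 8 and 4 reads in the untreated libraries, Cxcl1, with 6 and 5, and Ccl25, with 18 and 8, were also low there and passed through treated libraries. The same limit holds for their calls that use untreated cells, and for the counts and medians that hold them.

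Cxcl12, the ligand of CXCR4 and ACKR3 that retains stem cells and leukocytes in tissue, was the member that fell. It lies on chromosome 6. Cxcl12 had 339 and 355 CPM in the 5azadC libraries, 75.5 and 70.0 CPM in the VX680 libraries, 49.1 and 43.7 CPM in the 5azadC+VX680 libraries, and 1215 and 1191 CPM in the untreated libraries. No treated library overlapped the untreated libraries, and the 4 groups did not overlap each other. The log2 change against untreated cells was -1.79 ± 0.09 with 5azadC (edgeR adjusted p = 1.74e-08), -4.05 ± 0.10 with VX680 (adjusted p = 1.98e-11) and -4.70 ± 0.10 with both (adjusted p = 5.09e-12), that is 3.47, 16.5 and 25.9 times lower. Cxcl12 was also lower with both drugs than with 5azadC alone (-2.90 ± 0.10, adjusted p = 8.95e-10) and than with VX680 alone (-0.65 ± 0.10, adjusted p = 0.00223). The second of these calls was lost without VX680 replicate 1 (adjusted p = 0.0616) or without 5azadC+VX680 replicate 2 (0.0642). In bulk RNA, fewer cells of a type and less RNA per cell cannot be told apart. The summed level of the fibroblast markers, of which Lum was not tested, was also lower in treated cells. It was 22753 to 26354 CPM with 5azadC, 17323 to 17557 CPM with VX680, 14491 to 15043 CPM with both and 34713 to 39447 CPM in untreated cells. In untreated cells its largest parts were the collagen genes Col1a1 and Col1a2, at means of 13978 and 9575 CPM. Col1a1 stood at 7013, 3437 and 1882 CPM in the treated groups. Vim, also large in the sum, ran the other way, at 6135, 5801 and 6797 CPM against 3812. With 5azadC 2 of the 9 tested fibroblast markers rose and 5 fell, and with VX680 and with both drugs 2 rose and 6 fell. Of all tested genes, 22.6, 23.8 and 28.4% were called up and 19.6, 22.4 and 27.3% down in these comparisons. The counts that rose are near the shares called up. The log2 change of the collagen gene Col1a2 was -1.08 ± 0.12 with 5azadC, -1.74 ± 0.12 with VX680 and -2.61 ± 0.12 with both. The markers that rose, named here after their values were seen, were the surface protein gene Thy1 (0.87, 1.06 and 1.05 in the same order) and the intermediate filament gene Vim (0.69, 0.61 and 0.84). The part of this difference in the change of Cxcl12 was not tested.

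Ccl2, the CCR2 ligand that draws monocytes out of the blood, rose with each of the treatments. Ccl2 had 54.2 and 37.0 CPM in the 5azadC libraries, 39.6 and 37.2 CPM in the VX680 libraries, 57.3 and 54.0 CPM in the 5azadC+VX680 libraries, and 5.44 and 6.0 CPM in the untreated libraries. All 6 treated libraries lay far above both untreated libraries, and the treated groups were close to each other. The log2 change was 3.01 ± 0.20 with 5azadC, 2.76 ± 0.20 with VX680 and 3.29 ± 0.20 with both (edgeR adjusted p = 1.27e-07, 1.8e-07 and 1.67e-08), or 8.06-fold, 6.77-fold and 9.79-fold. No call was made between treatments: the log2 difference was 0.28 ± 0.16 for both against 5azadC (adjusted p = 0.216), 0.53 ± 0.16 for both against VX680 (adjusted p = 0.0642) and 0.25 ± 0.16 for 5azadC against VX680 (adjusted p = 0.325). Other settings made calls: without replicate 1 both against 5azadC was called (0.58, adjusted p = 0.00778), without replicate 2 5azadC against VX680 was (0.49, adjusted p = 0.0169), and without either both against VX680 was (adjusted p = 0.00507 and 0.00422), as it was without the low-count filter (0.00864).

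Ccl7, a monocyte attractant that binds CCR2 and other receptors, is the direct neighbour of Ccl2 on chromosome 11 among the genes of the annotation. Ccl7 had 33.5 and 29.6 CPM with 5azadC, 19.1 and 19.0 CPM with VX680, 25.6 and 23.8 CPM with both, and 6.07 and 3.22 CPM in untreated cells. The treated libraries did not overlap the untreated ones. Ccl7 rose by 2.70 ± 0.23 with 5azadC, 1.97 ± 0.23 with VX680 and 2.34 ± 0.23 with both on the log2 scale (edgeR adjusted p = 1.11e-06, 1.52e-05 and 1.66e-06). It was higher with 5azadC than with VX680 (log2 difference 0.73 ± 0.20, adjusted p = 0.0217), a call lost without 5azadC replicate 1 (adjusted p = 0.058), VX680 replicate 1 (0.138) or VX680 replicate 2 (0.139).

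The run of chemokine genes that starts with Ccl2 and Ccl7 goes on with Ccl11, Ccl12, Ccl8 and Ccl1, and of these other 4 only Ccl8 had enough reads to test. Ccl11, the eosinophil attractant eotaxin, had 4, 1 and 2 reads in the 5azadC, VX680 and 5azadC+VX680 groups and 8 in the untreated group, too few to test, and Ccl12 and Ccl1 had none. Ccl8, an attractant of monocytes and T cells, had 3.45 and 1.37 CPM with 5azadC, 1.86 and 0.665 CPM with VX680, 0.702 and 1.52 CPM with both, and 2.45 and 0.879 CPM in untreated cells. The Ccl8 libraries of every group overlapped, and no comparison called it (edgeR adjusted p = 0.573, 0.645 and 0.459 against untreated cells).

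Ccl5, the T cell and monocyte attractant RANTES, lies in another run on chromosome 11, beside Ccl9 and Ccl6. Ccl5 had 89 and 42 reads in the 5azadC libraries, 5 and 6 reads in the VX680 libraries, 49 and 34 reads in the 5azadC+VX680 libraries, and 0 and 2 reads in the untreated libraries. The libraries that received 5azadC, with or without VX680, were high, and the VX680 and untreated libraries were low. Against untreated cells the CPM ratio was 71.9 with 5azadC (95% counting interval 19.5 to 599.9, edgeR adjusted p = 2.46e-05) and 51.6 with both drugs (13.8 to 433, adjusted p = 3.29e-05). With VX680 alone the ratio was 5.55 (1.21 to 51.5), which did not pass the test (adjusted p = 0.093). The size of these ratios rests on the 2 reads of untreated replicate 2. Without untreated replicate 1 the fitted log2 change was 4.66 with 5azadC, 1.04 with VX680 and 4.22 with both, against 5.94, 2.32 and 5.49 with all libraries (adjusted p = 0.00123, 0.488 and 0.00138 without that library). Without untreated replicate 2 no untreated read is left, so no size is given, and all treatments passed (adjusted p = 2e-04, 0.0351 and 0.000166). VX680 also passed without the low-count filter (0.0377). Ccl5 was higher with both drugs than with VX680 (log2 difference 3.18 ± 0.56, adjusted p = 0.00509), a call lost without VX680 replicate 1 (adjusted p = 0.104) or 5azadC+VX680 replicate 1 (0.0698), and it was higher with 5azadC than with VX680 (3.63 ± 0.54, adjusted p = 0.000536). Ccl9, a mouse CC chemokine of myeloid cells, had 1 read with 5azadC, 11 with VX680, 9 with both and 2 in untreated cells, and was not tested.

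Ccl25, the CCR9 ligand known from thymus and gut, was low throughout. It had 2.34 and 2.06 CPM with 5azadC, 3.82 and 3.33 CPM with VX680, 4.49 and 4.13 CPM with both, and 1.63 and 1.17 CPM in untreated cells. Ccl25 rose with VX680 (log2 change 1.31 ± 0.41, edgeR adjusted p = 0.0169) and with both drugs (1.58 ± 0.41, adjusted p = 0.00464), and its change with 5azadC was 0.61 ± 0.43 (adjusted p = 0.277). With 18 and 8 reads in the untreated libraries, Ccl25 passed the low-count filter through treated libraries, so these calls support nothing further. The VX680 call was lost with DESeq2 (adjusted p = 0.0709) and without untreated replicate 2 (0.0898), VX680 replicate 1 (0.109) or VX680 replicate 2 (0.0509). An exon of Ccl25 overlaps Elavl1 on the other strand, as Cxcl10 overlaps Art3 and Cxcl16 overlaps Zmynd15; the strand setting of the counting is not given in the sources used here, so reads of these partners cannot be told apart.

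The CC genes Ccl27a and Ccl17 were also too low to test. Ccl27a, the CCR10 ligand of skin, had 4 reads with 5azadC and 13 in each of the VX680, 5azadC+VX680 and untreated groups, and 45% of its 50-base windows occur in near-identical copies such as Ccl27b, so its count is uncertain. Ccl17, the CCR4 ligand that lies beside Cx3cl1 on chromosome 8, had 6 reads with 5azadC, 4 with VX680, 3 with both and 0 in untreated cells.

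**Figure D2:**
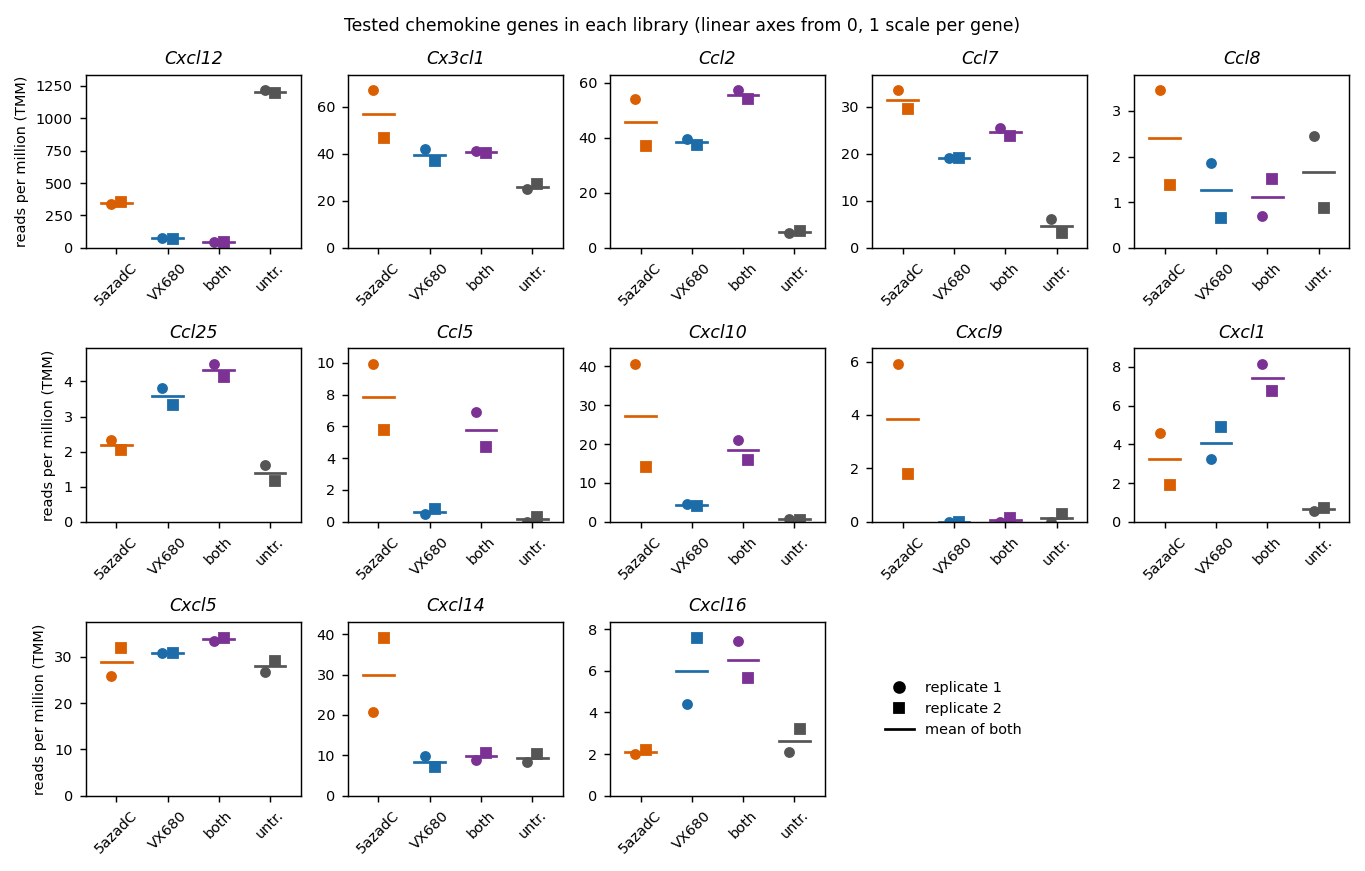
Level of each tested chemokine gene in every library, in CPM with TMM factors on linear axes from 0; circles are replicate 1, squares replicate 2 and lines group means. Cxcl12 stands at 1215 and 1191 CPM in untreated cells, far above all treated libraries, while Ccl2, Ccl7, Cxcl10 and Cxcl1 stand lowest in untreated cells.

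Cxcl10, Cxcl9 and Cxcl11 bind CXCR3 on activated T and NK cells. Cxcl10, on chromosome 5, had 40.5 and 14.1 CPM in the 5azadC libraries, 4.51 and 4.12 CPM in the VX680 libraries, 20.9 and 16 CPM in the 5azadC+VX680 libraries, and 0.725 and 0.586 CPM in the untreated libraries. The groups that received 5azadC were highest, the VX680 libraries were intermediate, and no treated library overlapped the untreated ones. Cxcl10 rose by 5.33 ± 0.54 with 5azadC, 2.67 ± 0.65 with VX680 and 4.75 ± 0.55 with both on the log2 scale (edgeR adjusted p = 4.67e-06, 0.00408 and 7.37e-06), or 40.3-fold, 6.35-fold and 27.0-fold. Without 5azadC replicate 1, the 5azadC change was 4.37 (adjusted p = 7.96e-08).

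Among the treatments, Cxcl10 was higher with 5azadC than with VX680 (log2 difference 2.66 ± 0.40, edgeR adjusted p = 0.000544, and 1.70 without 5azadC replicate 1) and higher with both than with VX680 (2.09 ± 0.41, adjusted p = 0.00858). The second call was lost on leaving out any library of those 2 groups (adjusted p of 0.0518 to 0.104). The difference between both drugs and 5azadC was -0.58 ± 0.35 (adjusted p = 0.254), with 5azadC replicate 1 above and replicate 2 below the 5azadC+VX680 libraries. It was 0.38 without 5azadC replicate 1 (adjusted p = 0.34) and -1.13 without 5azadC replicate 2 (adjusted p = 0.000634), so its direction rests on these libraries. Without the low-count filter the difference was -0.59 and passed (adjusted p = 0.0392).

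Cxcl9 was found almost wholly in cells given 5azadC alone. It had 53 and 13 reads in the 5azadC libraries, 0 in both VX680 libraries, 0 and 1 read in the 5azadC+VX680 libraries, and 0 and 2 reads in the untreated libraries. The CPM ratio of 5azadC to untreated cells was 36.2 (95% counting interval 9.64 to 305, edgeR adjusted p = 0.00186), and that of 5azadC+VX680 to 5azadC cells was 0.0172 (0.000428 to 0.0989, adjusted p = 0.0039). The first was called without any single library, but its fitted log2 change, 4.93 with all of them, was 3.65 without untreated replicate 1 (adjusted p = 0.0424) and 3.80 without 5azadC replicate 1 (0.0285), and without untreated replicate 2 no untreated read is left (0.00759). The second, fitted at -5.54, was -4.41 without 5azadC replicate 1 (0.035) and -6.13 without 5azadC replicate 2 (0.000373), with no 5azadC+VX680 read left without replicate 2 of that group (0.0373), and the call was lost without 5azadC+VX680 replicate 1 (-4.69, adjusted p = 0.0569). Against VX680 cells, where a floor of 3 reads over the group was used, Cxcl9 was at least 23.9-fold higher with 5azadC (adjusted p = 0.00255, and 0.0169 without 5azadC replicate 1, which holds 53 of its reads). Cxcl11 was not tested, with 17 and 3 reads in the 5azadC libraries, 1 and 0 with VX680, 3 and 1 with both, and 0 in both untreated libraries. For Cxcl10, Cxcl9 and Cxcl11 alike, 5azadC replicate 1 lay above replicate 2.

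The ELR chemokines Cxcl1 and Cxcl5 both signal through CXCR2 to neutrophils. Cxcl1 was called against untreated cells with each treatment and Cxcl5 was not, and their responses were not tested against each other. The filter limit given above holds for these calls of Cxcl1. Cxcl1 had 4.57 and 1.92 CPM with 5azadC, 3.24 and 4.92 CPM with VX680, 8.14 and 6.75 CPM with both, and 0.544 and 0.732 CPM in untreated cells. Every treated library was above both untreated libraries, and the 5azadC+VX680 libraries were highest. Cxcl1 rose by 2.39 ± 0.56 with 5azadC (edgeR adjusted p = 0.00363), 2.67 ± 0.54 with VX680 (adjusted p = 0.00122) and 3.56 ± 0.52 with both (adjusted p = 5.67e-05) on the log2 scale. The 5azadC call was lost without untreated replicate 1 (adjusted p = 0.0512) or 5azadC replicate 1 (log2 change 1.61, adjusted p = 0.0691). The difference between both drugs and 5azadC was 1.17 ± 0.41 (adjusted p = 0.0514), and 1.94 without 5azadC replicate 1 (adjusted p = 0.00911).

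Cxcl5 had 25.8 and 31.8 CPM with 5azadC, 30.8 and 30.7 CPM with VX680, 33.4 and 34.0 CPM with both, and 26.7 and 29.1 CPM in untreated cells. The groups were close to each other, and in the 5azadC comparison the libraries overlapped. The log2 change was 0.04 ± 0.14 with 5azadC, 0.14 ± 0.14 with VX680 and 0.28 ± 0.14 with both (edgeR adjusted p = 0.827, 0.431 and 0.114). The other ELR genes were scarce: Cxcl2 had 5 reads and Cxcl3 9 reads in all, and Cxcl15, a neutrophil attractant known from mouse lung, had 4 reads with 5azadC, 2 with VX680, 0 with both and 13 in untreated cells. On chromosome 5 these 3 genes lie in a row with Cxcl1, in the order Cxcl3, Cxcl15, Cxcl1 and Cxcl2.

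Cxcl14, a chemokine that skin and other epithelia express without inflammation, rose with 5azadC alone. It had 20.6 and 39.1 CPM in the 5azadC libraries, 9.81 and 7.05 CPM in the VX680 libraries, 8.85 and 10.6 CPM in the 5azadC+VX680 libraries, and 8.33 and 10.4 CPM in the untreated libraries. The 5azadC libraries lay above all the others, which overlapped among themselves. The log2 change against untreated cells was 1.68 ± 0.29 with 5azadC (edgeR adjusted p = 0.000396), and the values of -0.12 ± 0.31 with VX680 (adjusted p = 0.777) and 0.07 ± 0.31 with both (adjusted p = 0.859) did not pass. Cxcl14 was lower with both drugs than with 5azadC alone (-1.61 ± 0.29, adjusted p = 0.0013) and higher with 5azadC than with VX680 (1.80 ± 0.29, adjusted p = 0.000872).

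Cxcl16 and Cx3cl1 are the chemokines made as membrane proteins, from which ADAM10 and ADAM17 cut a soluble form. Cxcl16, the CXCR6 ligand, had 2.0 and 2.19 CPM with 5azadC, 4.41 and 7.58 CPM with VX680, 7.44 and 5.65 CPM with both, and 2.08 and 3.22 CPM in untreated cells. The libraries with VX680 were above those without it. Cxcl16 rose with VX680 (log2 change 1.19 ± 0.39, edgeR adjusted p = 0.0218) and with both (1.34 ± 0.39, adjusted p = 0.00975), with -0.30 ± 0.44 for 5azadC (adjusted p = 0.618). It was higher with both than with 5azadC (1.64 ± 0.40, adjusted p = 0.00928) and lower with 5azadC than with VX680 (-1.49 ± 0.40, adjusted p = 0.0217). Each of these 4 calls was lost on leaving out at least 1 library: VX680 against untreated without untreated replicate 1 (adjusted p = 0.183) or VX680 replicate 2 (0.233), and with DESeq2 (0.0568); both against untreated without untreated replicate 1 (0.105) or 5azadC+VX680 replicate 1 (0.0833); both against 5azadC without 5azadC+VX680 replicate 1 (0.0847); and 5azadC against VX680 without 5azadC replicate 1 (0.0694) or VX680 replicate 2 (0.235).

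Cx3cl1, the CX3CR1 ligand fractalkine that tethers monocytes and NK cells, had 66.9 and 46.9 CPM with 5azadC, 41.9 and 36.8 CPM with VX680, 41 and 40.1 CPM with both, and 24.8 and 27.1 CPM in untreated cells. All treated libraries lay above the untreated ones. Cx3cl1 rose by 1.14 ± 0.16 with 5azadC, 0.61 ± 0.16 with VX680 and 0.65 ± 0.16 with both on the log2 scale (edgeR adjusted p = 7.74e-05, 0.00725 and 0.00409). The VX680 call was lost without untreated replicate 1 (adjusted p = 0.0756) or VX680 replicate 1 (0.0811). Cx3cl1 was lower with both than with 5azadC (-0.49 ± 0.16, adjusted p = 0.0334) and higher with 5azadC than with VX680 (0.53 ± 0.15, adjusted p = 0.0312). Without 5azadC replicate 1 these values were -0.21 (adjusted p = 0.318) and 0.25 (adjusted p = 0.277), DESeq2 lost both calls (0.0692 and 0.0609), and 3 further libraries ended the first call and 4 the second.

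**Figure D3:**
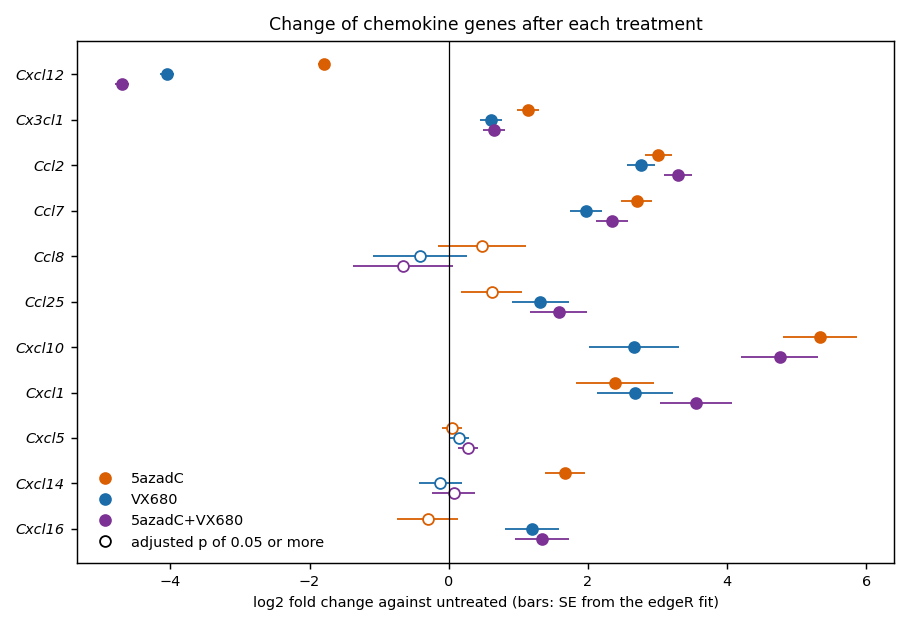
log2 fold change of 11 tested chemokine genes against untreated cells with each treatment; points are edgeR estimates, bars their SE, and open points have an adjusted p of 0.05 or more. Cxcl12 lies left of 0 with all treatments, at -1.79, -4.05 and -4.70, Ccl2, Ccl7, Cxcl10, Cxcl1 and Cx3cl1 lie to the right with all treatments, and Cxcl14 is filled for 5azadC only.

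Between treatments, both drugs against 5azadC called 1 member up and 4 down, beside 24.8% of all tested genes (9.98% up and 14.8% down): Cxcl16 was higher, and Cxcl12, Cx3cl1, Cxcl14 and Cxcl9 were lower. Both drugs against VX680 called 2 up and 1 down, beside 6.50% of all genes (2.45% up and 4.05% down): Cxcl10 and Ccl5 were higher and Cxcl12 was lower. Against VX680, 5azadC called 7 up and 1 down, beside 15.8% of all genes (9.33% up and 6.47% down): Cxcl12, Cx3cl1, Ccl7, Cxcl14, Cxcl10, Ccl5 and Cxcl9 were higher and Cxcl16 was lower. Each pair of these comparisons shares the libraries of 1 group. These counts moved by over 1.5 times on leaving out single libraries. For both against 5azadC, 3 members were up without 5azadC replicate 1, and 0 up and 2 down without 5azadC+VX680 replicate 1. For both against VX680, 0 were up without VX680 replicate 1 or 5azadC+VX680 replicate 1, 1 was up without replicate 2 of either group, and 0 were down without VX680 replicate 1 or 5azadC+VX680 replicate 2. For 5azadC against VX680, 0 were down without 5azadC replicate 1 or VX680 replicate 2.

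The interaction asked whether the log2 change with both drugs equalled the sum of the changes with each alone. It was negative and called for 5 members and positive and called for 1, beside 15.6% of all tested genes (10.6% down and 4.95% up). Without untreated replicate 1, 3 were negative and called. Ccl2 changed by 3.29 with both drugs, where the single changes add up to 5.77, an interaction of -2.48 ± 0.26 (edgeR adjusted p = 3.6e-05). Ccl7 changed by 2.34 against a sum of 4.67, an interaction of -2.33 ± 0.31 (adjusted p = 0.000227). The combined rise of these 2 neighbours was thus less than the sum, and in both it was close in size to the rise with either drug. Cxcl10 changed by 4.75 against a sum of 8.0 (interaction -3.25 ± 0.74, adjusted p = 0.00951), a call lost without untreated replicate 1 (0.0664), and the interaction was -2.28 without 5azadC replicate 1 (0.00367). Cx3cl1 changed by 0.65 against a sum of 1.75 (-1.10 ± 0.22, adjusted p = 0.00504). Cxcl14, whose rise with 5azadC was not seen with both drugs, had an interaction of -1.48 ± 0.42 (adjusted p = 0.0308), and this call was lost on leaving out any of 6 of the 8 libraries (adjusted p of 0.0568 to 0.172). Cxcl12 was the member with a positive interaction: it fell by 4.70 with both drugs against a sum of -5.84 (1.14 ± 0.13, adjusted p = 7.93e-05). For Cxcl1 the interaction of -1.50 ± 0.70 did not pass (adjusted p = 0.17; it was -0.72 without 5azadC replicate 1, adjusted p = 0.567, and -1.95 without 5azadC replicate 2, adjusted p = 0.0392), nor did 0.45 ± 0.56 for Cxcl16 (adjusted p = 0.655) or -0.35 ± 0.56 for Ccl25 (adjusted p = 0.734).

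**Figure D4:**
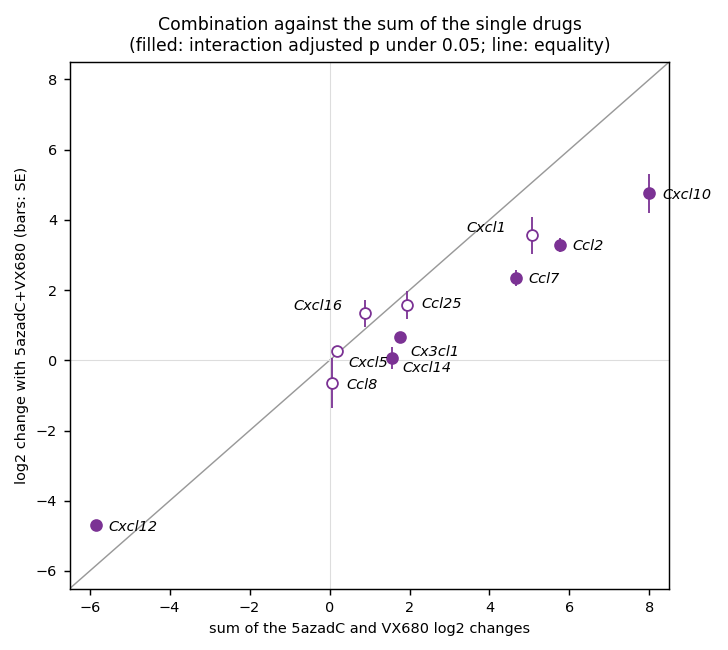
log2 change with 5azadC+VX680 (vertical, bars SE) against the sum of the log2 changes with 5azadC and VX680 alone (horizontal) for 11 tested chemokine genes; the line marks equality and filled points have an interaction adjusted p under 0.05. Ccl2, Ccl7 and Cxcl10 lie below the line, at 3.29, 2.34 and 4.75 against sums of 5.77, 4.67 and 8.0, and Cxcl12 lies above it, at -4.70 against -5.84.

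Because the cells are hybrid, reads over parental variants can be assigned to the musculus (mus) or castaneus (cas) allele. Such reads were 26.1 to 26.9% of each library, and the median mus share over all genes was 46.0 to 46.4% in every library. The allelic ratio was tested in 10 members that averaged 10 or more such reads in a library. With 5azadC 1 member was called, Cxcl12, beside 0.282% of 10301 genes (0.155% toward mus and 0.126% toward cas). No member was called with VX680, beside 0.379% of genes (0.194% toward mus and 0.184% toward cas), or with both drugs, beside 0.515% (0.184% toward mus and 0.330% toward cas). Cxcl12 had 718 mus and 308 cas reads in 5azadC replicate 1 and 584 mus and 261 cas reads in replicate 2, against 2576 mus and 2179 cas reads in untreated replicate 1 and 1609 mus and 1361 cas reads in replicate 2. Both alleles thus had fewer reads with 5azadC, and the cas allele lost the larger part. The mus share of Cxcl12 was 69.5 ± 0.61% with 5azadC, 59.4 ± 4.42% with VX680, 55.3 ± 4.34% with both and 54.2 ± 0.00038% in untreated cells (SD, n = 2). The log2 change of its mus to cas ratio was 0.95 ± 0.14 with 5azadC (edgeR adjusted p = 4.95e-05), and 0.32 ± 0.17 with VX680 (adjusted p = 0.811) and 0.08 ± 0.20 with both (adjusted p = 0.971) did not pass.

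Cx3cl1 and Cxcl5 had lower mus shares with treatment that did not pass the test over all genes. Cx3cl1 stood at 38.4 ± 4.27% with 5azadC, 44.5 ± 5.15% with VX680, 33.7 ± 2.68% with both and 52.3 ± 1.35% in untreated cells (SD, n = 2; edgeR adjusted p = 0.649 with 5azadC and 0.187 with both). Cxcl5, whose total level was not called, stood at 46.6 ± 4.76%, 48.2 ± 2.59% and 35.8 ± 8.77% in the treated groups, against 60.9 ± 7.44% in untreated cells (adjusted p = 0.743 with 5azadC and 0.171 with both). For these 2 genes, picked from the tested members, the treated libraries lay below the untreated ones in every group. Counting error alone could cover part of this. The binomial interval of Cxcl5 in untreated replicate 2 (55.7%, 44.7 to 66.3) held the 50% of 5azadC replicate 2 and of VX680 replicate 2. That of Cx3cl1 in untreated replicate 1 (51.4%, 43.0 to 59.6) held the 48.1% of VX680 replicate 1. How many of all genes separate in this way was not counted.

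Some members came almost wholly from 1 allele in all groups. Over the 8 libraries, Cxcl14 had 461 mus and 20 cas reads (95.8% mus), Cxcl1 had 160 mus and 7 cas reads (95.8%), and Ccl8 had 3 mus and 101 cas reads (2.88%). Cxcl10 had 70.0 and 72.6% mus reads with 5azadC, 100 and 93.8% with VX680, 77.0 and 78.4% with both, and 75.0 and 100% in untreated cells, where only 8 and 2 reads could be assigned. Ccl2 had 660 mus and 921 cas reads in all (41.7% mus). No reads of Ccl5 could be assigned to an allele. The number of variants behind each share is not given in the sources used here, and no share was compared between genes.

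**Figure D5:**
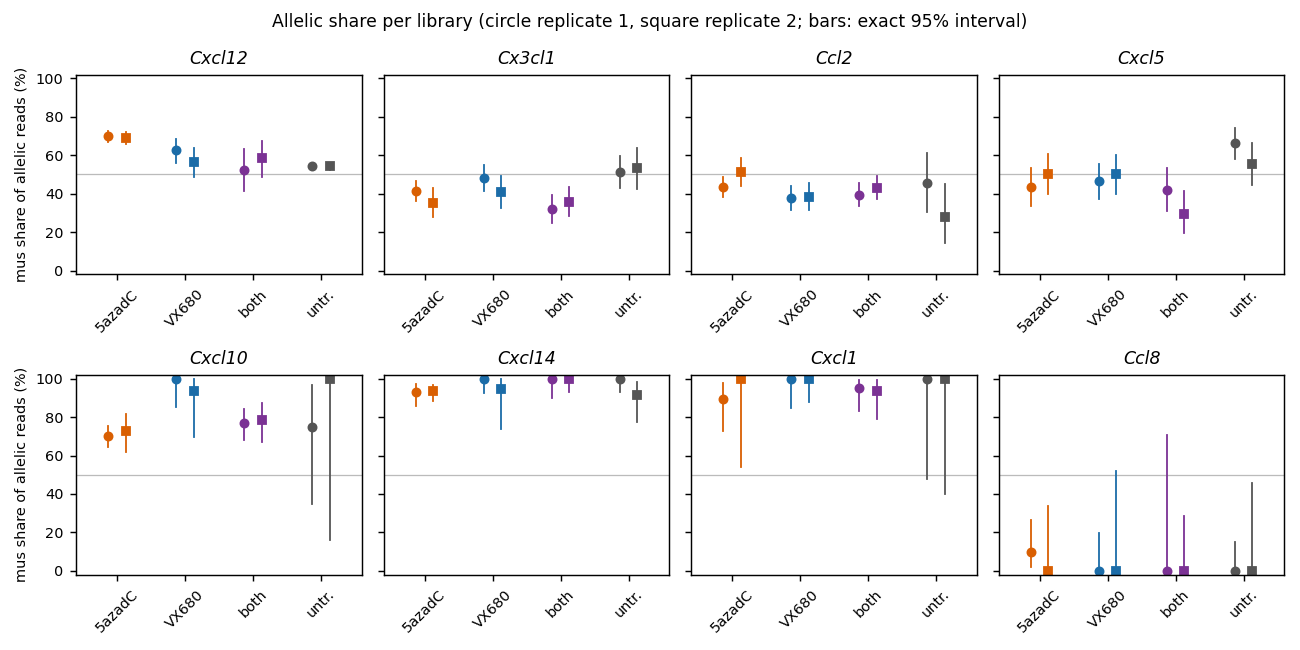
Share of allelic reads assigned to the mus allele (%) in each library for 8 chemokine genes, with exact 95% binomial intervals that cover counting error only; the grey line marks 50%. Cxcl12 is at 70.0 and 69.1% in the 5azadC libraries and 54.2% in both untreated libraries, Cxcl14 and Cxcl1 lie near the top in all groups, and Ccl8 near the bottom.

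The receptors had few or no reads in these cultures. None of 18 signalling chemokine receptors passed the low-count filter, 8 had no reads, among them Ccr1, Ccr2 and the Cxcl10 receptor Cxcr3, and 16 had under 10 reads in all. Of 5 atypical receptors, which scavenge chemokines, Ackr3 was tested. Ackr3, which takes up Cxcl12, had 13.7 and 15.1 CPM with 5azadC, 8.83 and 12.1 CPM with VX680, 9.13 and 11.3 CPM with both, and 16.3 and 11.9 CPM in untreated cells, and no comparison with untreated cells called it (edgeR adjusted p = 0.971, 0.135 and 0.111). Ppbp, a CXC chemokine of the ELR kind whose symbol lies outside the rule, had 22 and 24 reads with 5azadC, 11 and 7 with VX680, 8 and 6 with both, and 2 and 0 in untreated cells. With 2 untreated reads, its CPM ratio to untreated cells was 25.2 with 5azadC (95% counting interval 6.6 to 215, edgeR adjusted p = 0.000446), 9.08 with VX680 (2.17 to 80.7, adjusted p = 0.0144) and 8.70 with both (2.0 to 78.9, adjusted p = 0.0154). Ppbp passed the low-count filter through the 5azadC libraries, where it was highest, so these values and calls support nothing further.

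The NF-kB list holds subunits of this transcription factor, its inhibitors, several of which are its own targets, and the IKK genes Ikbkb, Ikbkg and Chuk, whose products activate it. Over all tested genes, the shares called up with 5azadC, VX680 and both were 22.6, 23.8 and 28.4%, and those called down 19.6, 22.4 and 27.3%, with medians near 0, and the counts of this and the next lists stand beside these shares. Of 14 tested genes, 8 rose and 1 fell with 5azadC, 8 rose and 1 fell with VX680, and 10 rose and 1 fell with both, with median log2 changes of 0.54, 0.59 and 0.87. Tnfaip3, which encodes the feedback inhibitor A20, had 28.9 and 16.3 CPM with 5azadC, 31.5 and 32.3 CPM with VX680, 56.2 and 50.6 CPM with both, and 5.98 and 5.71 CPM in untreated cells. Its log2 change was 1.96 ± 0.24, 2.44 ± 0.24 and 3.18 ± 0.23 in that order (edgeR adjusted p = 2.95e-05, 2.73e-06 and 1.08e-07). Nfkbia, the inhibitor IkBa, rose by 1.17 ± 0.13 with both drugs (adjusted p = 4.6e-06).

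Of 7 tested STAT and IRF genes, which carry and amplify the interferon signal, 5 rose with 5azadC, 2 with VX680 and 4 with both, and none fell; the VX680 count is near the 23.8% of all genes called up. The median log2 changes were 2.10, 0.26 and 0.80. Irf7 had 156 and 67.8 CPM with 5azadC, 4.41 and 3.59 CPM with VX680, 18.2 and 24.8 CPM with both, and 0.906 and 2.64 CPM in untreated cells. It rose by 6.13 ± 0.45 with 5azadC and 3.75 ± 0.51 with both (edgeR adjusted p = 3.27e-07 and 2.88e-05), and its value of 1.34 ± 0.65 with VX680 did not pass (adjusted p = 0.105). With 10 and 18 reads in the untreated libraries, Irf7 passed the low-count filter through treated libraries, so these calls support nothing further. As with Cxcl10 and Cxcl9, 5azadC replicate 1 was the higher of the 5azadC libraries.

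Among the cytokines and cytokine receptors that can induce chemokines, 11 of 18 were tested. With 5azadC 5 rose and 2 fell, with VX680 2 rose and 4 fell, and with both 3 rose and 5 fell. The counts that rose with VX680 and with both are near the shares of all genes called up, 23.8 and 28.4%. Il1a, Il1b, Il17a and Ifng had no reads in any library. Tnf, an inducer of Ccl2 and Cxcl1 that is named here after its values were seen, had 4 and 5 reads with 5azadC, 1 and 1 with VX680, 2 and 10 with both, and 0 in both untreated libraries, and was not tested. Il6 and Ifnb1 were not tested either. Il6 had 0 and 1 reads with 5azadC, 0 and 2 with VX680, 2 and 3 with both, and 0 in both untreated libraries. Ifnb1 ran the other way, with 0 reads in the 5azadC and VX680 libraries, 2 and 0 with both, and 4 and 2 in untreated cells. Of 7 tested proteases that trim or shed chemokines, none rose, and 6 fell with 5azadC, 4 with VX680 and 4 with both, beside 19.6, 22.4 and 27.3% of all genes called down. The log2 change of Mmp14, a membrane protease, was -0.52 ± 0.10 with 5azadC, -0.87 ± 0.10 with VX680 and -1.67 ± 0.10 with both (edgeR adjusted p = 0.000821, 1.05e-05 and 1.7e-08). Adam10, a sheddase of Cxcl16 and Cx3cl1, had log2 changes of -0.48 ± 0.09 with 5azadC, -0.71 ± 0.09 with VX680 and -0.70 ± 0.09 with both (adjusted p = 0.00102, 4.25e-05 and 2.89e-05). Between both drugs and 5azadC, 2 proteases were called higher and 2 lower, beside 9.98% of all tested genes called up and 14.8% down. Those called higher were the collagenase gene Mmp13 (log2 difference 3.27 ± 0.65, edgeR adjusted p = 0.00257) and the gelatinase gene Mmp9 (CPM ratio 15.3, 95% counting interval 3.84 to 133, adjusted p = 0.0149). In the 5azadC libraries Mmp13 had 2 and 2 reads and Mmp9 had 2 and 0. Both passed the low-count filter through other groups, so these 2 calls support nothing further. Mmp9 is named after its values were seen.

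Other cell types that make or answer chemokines were checked by their markers. Of 10 leukocyte markers, 3 were tested, Adgre1 and Cd3e had no reads, and the defining marker Ptprc had 2 reads, both in 5azadC+VX680 replicate 1. Their summed level was 20.2 to 25.1 CPM with 5azadC, 23.9 to 25.9 CPM with VX680, 25.5 to 31.7 CPM with both and 22 to 23.6 CPM in untreated cells. Cd68, a lysosomal protein of macrophages that other cells also carry, rose with all treatments (log2 change 1.14 ± 0.26, 1.46 ± 0.26 and 1.79 ± 0.26; edgeR adjusted p = 0.00361, 0.000437 and 5.26e-05). Lyz2, the lysozyme of macrophages and neutrophils, fell with VX680 (-0.96 ± 0.35, adjusted p = 0.0369) and with both (-1.68 ± 0.38, adjusted p = 0.00191), and its value with 5azadC was -0.81 ± 0.35 (adjusted p = 0.0788). Endothelial markers summed to 218 to 233 CPM, 196 to 198 CPM and 176 to 197 CPM in the treated groups, against 126 to 143 CPM in untreated cells. Of 5 tested markers 2, 4 and 1 were up, beside 22.6, 23.8 and 28.4% of all genes called up. Among those up with VX680, Pecam1, Tek and Vwf had at most 6 reads in an untreated library. They passed the low-count filter through treated libraries, so their calls support nothing further. Most of this sum was Eng, at a mean of 191, 105 and 115 CPM in the treated groups and 122 in untreated cells. Flt1 followed, at 31.9, 84.0 and 66.5 CPM against 11.8. The defining marker Pecam1 had 5 and 1 reads with 5azadC, 11 and 19 with VX680, 5 and 12 with both, and 2 and 3 in untreated cells. Cdh5 had at most 7 reads in a library. Of 6 keratinocyte markers Krt10 was tested and was not called. Whether endothelial cells were present, or had a part in the chemokine changes, was not tested.

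The 2 libraries of each group differed by more than read sampling over all tested genes, most of all with 5azadC (chi-square per degree of freedom of 19.9 with 5azadC, 3.02 with VX680, 2.74 with both and 7.5 in untreated cells). With 5azadC, 4 of the 13 tested members lay at least 2-fold apart between the libraries (Cxcl10, Cxcl9, Cxcl1 and Ccl8), and with both drugs 0 did.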

How the data were processed

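Per the labels' protocols, Trizol was used for the total RNA and dUTP marked the strand in the libraries. The composite table holds raw counts per gene, both alleles together, as deposited by the authors, with a column of gene length in bases per the file headers, which is another quantity and entered the levels per kilobase only. The authors also deposited counts of the reads they could place on 1 allele, mus or cas. The 8 columns that repeat the sum of both alleles were not used. Per the submitters' processing notes, mm9 is the build, and TopHat2 2.0.10, HOMER 4.8 and edgeR are named with no role. The reference annotation follows another build, so chromosomes are given without coordinates.

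Counts were tested in R 4.3.3 by edgeR 4.0.16, on the 12643 genes that filterByExpr left, with TMM factors, 1 mean per group over all 8 libraries, quasi-likelihood F tests in 7 contrasts, and Benjamini-Hochberg adjusted p under 0.05 over all genes tested. Allelic ratios were tested with edgeR on the mus and cas counts, with a term per library, over 10301 genes averaging 10 or more allelic reads. A ratio against a group with 1 to 3 reads carries its exact 95% counting interval, and a group with 0 reads was set to a floor of 3 reads over the group. Intervals cover counting error only. The alternatives were RLE size factors, no filter, DESeq2 1.42.0, a replicate block, a mean of 20 allelic reads and leaving out each library. Both models were tested on simulated counts. All 38 members are accounted for; of each other list, at most the 3 called members with the smallest p in a comparison are named, beside its only tested or defining members. The members and lists were chosen with earlier results of these data known. Coding stretches were cut from GENCODE M21 transcripts by a search in frame for the cysteine codons TGC or TGT at the class spacing.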

Additional observations from a re-analysis of the deposited data

Results flagged for a closer look

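For 6 chemokine genes the effect of VX680 differed between cells with and without 5azadC, by the interaction term of the edgeR fit. This stands beside 15.6% of all tested genes called for that term (10.6% down and 4.95% up). On the log2 scale the VX680 effect with 5azadC minus that without it was 1.14 for Cxcl12 (edgeR adjusted p = 7.93e-05), -1.10 for Cx3cl1 (0.00504), -2.48 for Ccl2 (3.6e-05), -2.33 for Ccl7 (0.000227), -1.48 for Cxcl14 (0.0308) and -3.25 for Cxcl10 (0.00951). For Cxcl12, both VX680 effects were falls, and the fall was smaller in cells that also had 5azadC. For Cx3cl1 and Ccl7, both of which rose with VX680 alone, the level with both drugs was below that with 5azadC alone, a difference called for Cx3cl1 (adjusted p = 0.0334) and not for Ccl7 (0.205). Ccl2 stood slightly higher with both drugs than with 5azadC, without passing the test (adjusted p = 0.216). For Cxcl14 and Cxcl10, the 5azadC libraries on which the term rests lay far apart, at 20.6 and 39.1 CPM for Cxcl14 and at 40.5 and 14.1 CPM for Cxcl10. The Cxcl14 call was lost on leaving out any of 6 of the 8 libraries, and the Cxcl10 call without untreated replicate 1. Cxcl10 had 8 and 4 reads in the untreated libraries and passed the low-count filter through treated libraries, so its call supports nothing further. With 2 libraries in each group, no library could be tested as standing apart from its group.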

How the results depend on the processing

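The numbers of members called against untreated cells stayed within 1.5 times under every alternative. Between treatments they were less stable. For both drugs against 5azadC, the count of members called higher was 1 and became 2 with RLE size factors and 2 without the filter, because Cxcl1 then passed (adjusted p = 0.0493 and 0.0118), and on leaving out each library it ranged from 0 to 3, while the count called lower ranged from 2 to 5. For both against VX680 these ranges were 0 to 3 higher and 0 to 1 lower, for 5azadC against VX680 0 to 1 lower, and for the interaction 3 to 5 negative. Values that turned sign on leaving out a library ranged from -0.12 to 0.19 for Cxcl5 with 5azadC, from -0.40 to 0.078 for Cxcl14 with VX680, from -0.11 to 0.22 for Cxcl14 with both, from -1.13 to 0.38 for Cxcl10 between both and 5azadC, from -0.052 to 0.49 for Ccl2 between 5azadC and VX680, and from -0.11 to 0.25 for the mus share of Cxcl12 with both. None of these was called with all libraries, and in their fits calls arose only for Cxcl10 and Ccl2 without 5azadC replicate 2 (adjusted p = 0.000634 and 0.0169). The causes of these changes were not tested.

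Over all tested genes, same-numbered libraries did not deviate together, with correlations of -0.0622 to 0.0326. This cannot show whether libraries of the same number were made together. With a replicate block no call was lost, and Ccl2 passed between both drugs and VX680 (log2 difference 0.54, adjusted p = 0.0491). DESeq2 lost 4 calls. Without the filter, Ccl2 between both drugs and VX680 (0.52, adjusted p = 0.00864), Cxcl10 between both drugs and 5azadC (-0.59, 0.0392) and Ccl5 with VX680 (0.0377) passed too. Ccl5 with VX680 also passed without untreated replicate 2 (0.0351), and had an adjusted p of 0.488 without untreated replicate 1. At this depth, members under the low-count filter could not be tested.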
